A study of Mus musculus with 15 samples.

Results

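The genes described here belong to 7 families of membrane carriers for amino acids, monocarboxylates and organic ions. They were taken by name: every array probe whose systematic name maps to a gene symbol that starts with Slc1a, Slc3a, Slc7a, Slc16a, Slc22a, Slc38a or Slco and goes on with a number. The rule found 90 genes on 115 probes, of 21169 named genes and 55681 probes on the array. By family these were 14 Slco, 14 Slc16a, 26 Slc22a, 16 Slc7a, 2 Slc3a, 7 Slc1a and 11 Slc38a genes. The Slc7a count holds Slc7a6os, which lies opposite the gene Slc7a6, meets the rule by its letters and is no carrier.

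RNA of endothelial cells sorted from mouse liver was hybridised to 15 one-colour arrays from Agilent (3 arrays per group, 5 groups), and the series looked for markers of endothelial stem cells in adult liver. The first set of arrays holds EC-SP and EC-MP cells, labelled SP and MP and taken here as side and main population, from 8-week-old mice. A side population is the cell fraction that pumps out a DNA-binding dye. The second set holds 3 subsets sorted by the surface proteins CD157 and CD200, which are CD157+CD200+, CD157-CD200+ and CD157-CD200-, for which no age is labelled. No treatment, genotype, strain or sex is labelled for any group, and no group carries a labelled transgene. The design text calls the 3 samples of a group independent without saying whether each came from its own animals, so p-values speak only of the spread among the samples, part of which can be technical.

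Carriers set what a cell takes up and releases. Slc7a light chains reach the plasma membrane together with the heavy chain Slc3a2 (CD98) or Slc3a1 and exchange amino acids. Slc38a carriers mostly move neutral amino acids with sodium, and the sodium-coupled Slc1a carriers move glutamate or neutral amino acids. Slc16a carriers move lactate, pyruvate or creatine, and Slc22a and Slco carriers move organic cations and anions such as carnitine, steroid sulfates and prostaglandins. In liver, endothelial cells stand between the blood and the hepatocytes, which carry many organic ion carriers of their own.

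A level is given here as the log2 signal of a probe minus the log2 of the 75th percentile of its array, so 0 means the array's upper quartile, and values in a group stand in the order of replicates 1 to 3. Arrays with the same replicate number shared a slide and a scan within each set. Between 57.3% and 69.4% of the spots of an array were well above background. Differences were tested with limma, and a gene counts as called where its Benjamini-Hochberg adjusted p, taken over every feature of the comparison, was under 0.05. The sort was visible in the transcripts: Bst1, which encodes CD157, was higher in CD157+CD200+ than in CD157-CD200+ cells by 4.98 ± 0.25 (log2 difference ± SE, adjusted p = 0.00011), and for Cd200 the signal of CD157-CD200+ cells exceeded that of CD157-CD200- cells by at least 154-fold (adjusted p = 1.3e-08). All 5 pan-endothelial markers were well above background on all arrays of every group. The 7 sinusoidal markers summed to 8.99 to 11.9 times the array's 75th percentile in EC-SP cells against 238 to 450 in EC-MP cells, and to 38.4 to 51.4 in CD157+CD200+ and 80.7 to 103 in CD157-CD200+ against 740 to 992 in CD157-CD200- cells. The sinusoidal markers thus differed between EC-SP and EC-MP and among the subsets. Of 6 large-vessel markers, 2 were called higher in EC-SP minus EC-MP, and all 6 in each CD200+ subset over CD157-CD200- cells. None of the 6 was called between CD157+CD200+ and CD157-CD200+ cells. In RNA from a sorted population, fewer cells expressing a gene and less of its RNA per cell cannot be told apart.

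Of the 90 genes, 48 were tested between EC-SP and EC-MP and 46 among the subsets, 45 of them in both sets. Another 24 genes were well above background on at least 1 array without reaching all 3 of a group, and 17 were well above background on no array. Those 17 include the cystine carrier Slc7a11, the glutamate carrier Slc1a3, the cationic amino acid carrier Slc7a3, the organic cation carriers Slc22a2 and Slc22a3, and Slco4c1. Slco1b2, an uptake carrier of hepatocytes, was well above background on 3 of the 15 arrays and was not tested.

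Between EC-SP and EC-MP, 7 of 48 genes were called higher and 5 lower, together 25.0% of those tested, against 16.5% of all 23973 features (9.10% higher and 7.44% lower). With the replicate number, and so the slide, as a block, 11 genes were called higher. All shares of features given here are from the fit without the block. Counts with the block therefore have no share beside them and show no excess over the features. Between CD157+CD200+ and CD157-CD200- cells 8 of 46 were called higher and 7 lower, against 15.2% of all 23703 features (8.09% higher and 7.11% lower). Between CD157+CD200+ and CD157-CD200+ cells 2 genes were called higher, and the features as a whole were called at 1.05% (0.802% higher and 0.245% lower). Between CD157-CD200+ and CD157-CD200- cells 8 were called higher and 6 lower, against 11.8% of features (6.31% higher and 5.54% lower), and 10 were called lower with the block. Every called gene moved the same way on all 3 slides of its comparison, 12, 15, 2 and 14 genes in this order of comparisons. The calls were made on these same arrays, so this agreement was largely set in advance and adds no support. Uncalled genes such as Slc1a4 and Slc22a28 in EC-SP minus EC-MP also kept 1 direction on all 3 slides. The median log2 difference of the genes tested was 0.11, -0.04, 0.04 and -0.07 in the same order, beside -0.01, 0.01, -0.01 and 0.02 over all features. The limma F test for any difference among the subsets called 16 of 46 genes, against 13.9% of features, and 25 with the block. The subset comparisons share arrays, so their results are not independent of each other.

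**Figure D1:**
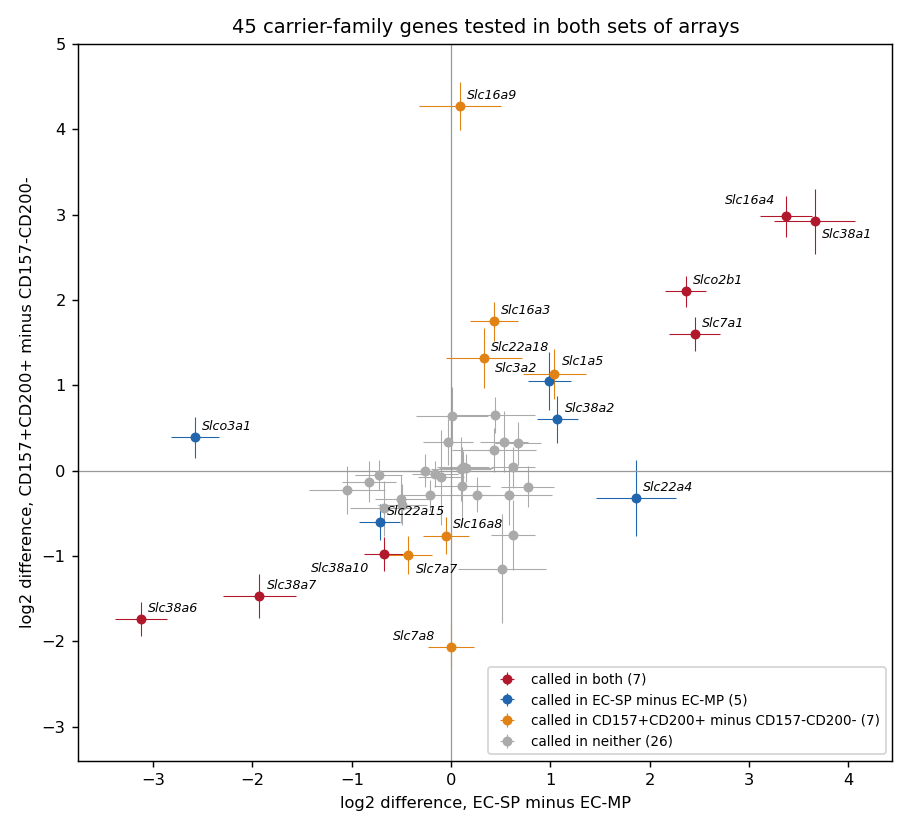
Log2 difference of 45 carrier-family genes in CD157+CD200+ minus CD157-CD200- cells (vertical axis) against the log2 difference in EC-SP minus EC-MP cells (horizontal axis), 2 comparisons that share no array. Bars are the standard errors of limma, n = 3 arrays per group, and colours give the 7 genes called in both, 5 and 7 called in 1 of them, and 26 called in neither; Slc16a4 was not well above background in EC-MP or CD157-CD200- cells, nor Slc22a4 in EC-MP cells, and Slc38a1 was so on 1 array of 3 in EC-MP and in CD157-CD200- cells, so these points rest wholly or in part on background signals.

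The genes called in both of the comparisons that share no array were 7 of 45 (15.6%), against 1626 of 22590 features tested in both (7.20%). Their directions matched in all 7, as they did in 93.2% of the features called in both: Slco2b1, Slc16a4, Slc38a1 and Slc7a1 were higher, and Slc38a6, Slc38a7 and Slc38a10 lower, in EC-SP cells and in CD157+CD200+ cells. The plot of one comparison against the other shows Slc16a9 and Slc7a8 at large differences among the subsets and near 0 between EC-SP and EC-MP, and Slco3a1 the other way round. No test was made of whether a gene's difference in one set of arrays exceeded that in the other.

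The upstream sequences of 4 genes are shown. Slco2b1 and Slc16a4 were the 2 genes called between CD157+CD200+ and CD157-CD200+ cells, and Slc16a9 and Slc7a8 had the most positive and the most negative called difference between CD157-CD200+ and CD157-CD200- cells. Each is the 250 bases before the RefSeq start on the gene's own strand in build GRCm38.p6, 5′ to 3′, at chr7:99711341-99711590 (minus strand, the most upstream of 3 listed starts), chr3:107290980-107291229 (plus strand), chr10:70245026-70245275 (plus strand) and chr14:54781887-54782136 (minus strand). Capitals mark matches, on either strand, to any of the motifs TGANTCA (AP-1), CCGGAAGT (ETS), GGGCGG (the GC box read by Sp1 and KLF factors), AGATAA (read by GATA factors) and TGATGNAA (the C/EBP-ATF element of amino acid response genes).
Slco2b1: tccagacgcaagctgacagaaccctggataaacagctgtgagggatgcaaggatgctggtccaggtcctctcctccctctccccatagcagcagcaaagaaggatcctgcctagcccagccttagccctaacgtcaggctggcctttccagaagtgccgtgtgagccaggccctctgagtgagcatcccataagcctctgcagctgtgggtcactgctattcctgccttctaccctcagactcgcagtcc
Slc16a4: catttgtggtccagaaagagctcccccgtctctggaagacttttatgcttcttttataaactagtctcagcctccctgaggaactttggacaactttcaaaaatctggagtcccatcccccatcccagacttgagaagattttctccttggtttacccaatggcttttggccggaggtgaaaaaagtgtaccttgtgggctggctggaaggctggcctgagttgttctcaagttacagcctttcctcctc
Slc16a9: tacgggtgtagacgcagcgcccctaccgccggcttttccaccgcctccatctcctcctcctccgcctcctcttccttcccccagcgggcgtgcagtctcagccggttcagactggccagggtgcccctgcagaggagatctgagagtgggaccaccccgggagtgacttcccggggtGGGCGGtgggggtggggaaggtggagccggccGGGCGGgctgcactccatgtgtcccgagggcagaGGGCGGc
Slc7a8: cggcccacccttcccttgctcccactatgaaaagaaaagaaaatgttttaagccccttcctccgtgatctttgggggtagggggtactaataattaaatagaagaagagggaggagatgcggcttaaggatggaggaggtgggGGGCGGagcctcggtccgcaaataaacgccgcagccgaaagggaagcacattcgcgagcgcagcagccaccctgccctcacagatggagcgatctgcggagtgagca
The Slc16a9 window holds 3 GC boxes and the Slc7a8 window 1, while the windows of Slco2b1 and Slc16a4 hold none of the 5 motifs. Of the most upstream windows of 27025 genes, 33.0% hold the GC box, 10.2% the GATA motif, 6.85% the AP-1 motif, 3.53% the C/EBP-ATF element and 2.92% the ETS motif. Of the 71 carrier genes with a window, 30 (42.3%) hold the GC box. For the other motifs the carrier shares were 8.45% (GATA), 5.63% (AP-1), 4.23% (C/EBP-ATF) and 0.00% (ETS). A match describes these letters and is no evidence of binding.

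Among the organic anion carriers, Slco2b1 followed CD157. It encodes an uptake carrier known in human for steroid sulfates and other organic anions. Its level was 2.81, 2.46 and 2.55 in EC-SP cells against 0.28, 0.34 and 0.13 in EC-MP cells. It was 2.50, 2.69 and 2.68 in CD157+CD200+ cells, against 0.39, 0.30 and 0.47 in CD157-CD200+ cells and 0.77, 0.54 and 0.28 in CD157-CD200- cells. EC-SP did not overlap EC-MP, and CD157+CD200+ overlapped neither of the other subsets, which overlapped each other. The log2 difference was 2.36 ± 0.21 in EC-SP minus EC-MP (adjusted p = 0.00021), 2.10 ± 0.18 in CD157+CD200+ minus CD157-CD200- (adjusted p = 3.3e-05) and 2.24 ± 0.18 in CD157+CD200+ minus CD157-CD200+ (adjusted p = 0.00075). Between CD157-CD200+ and CD157-CD200- it was -0.14 ± 0.18 (adjusted p = 0.78). A second Slco2b1 probe gave 2.25, 2.06 and 2.21 for the first 3 of these, each called. Cholangiocyte markers also stood higher in EC-SP cells, where 5 of 6 tested were called and the 7 listed summed to 8.82 to 10.5 times the 75th percentile against 1.55 to 2.24 in EC-MP cells. They summed to 4.24 to 6.72 in CD157+CD200+, 1.85 to 3.38 in CD157-CD200+ and 2.65 to 3.81 in CD157-CD200- cells, and the tested markers had a median difference of 0.72 in CD157+CD200+ minus CD157-CD200- and 1.03 in CD157+CD200+ minus CD157-CD200+. None of the 6 tested cholangiocyte markers was called in either of these subset comparisons. The part of the cholangiocyte markers in the Slco2b1 result, and in the other genes higher in EC-SP, was not tested.

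**Figure D2:**
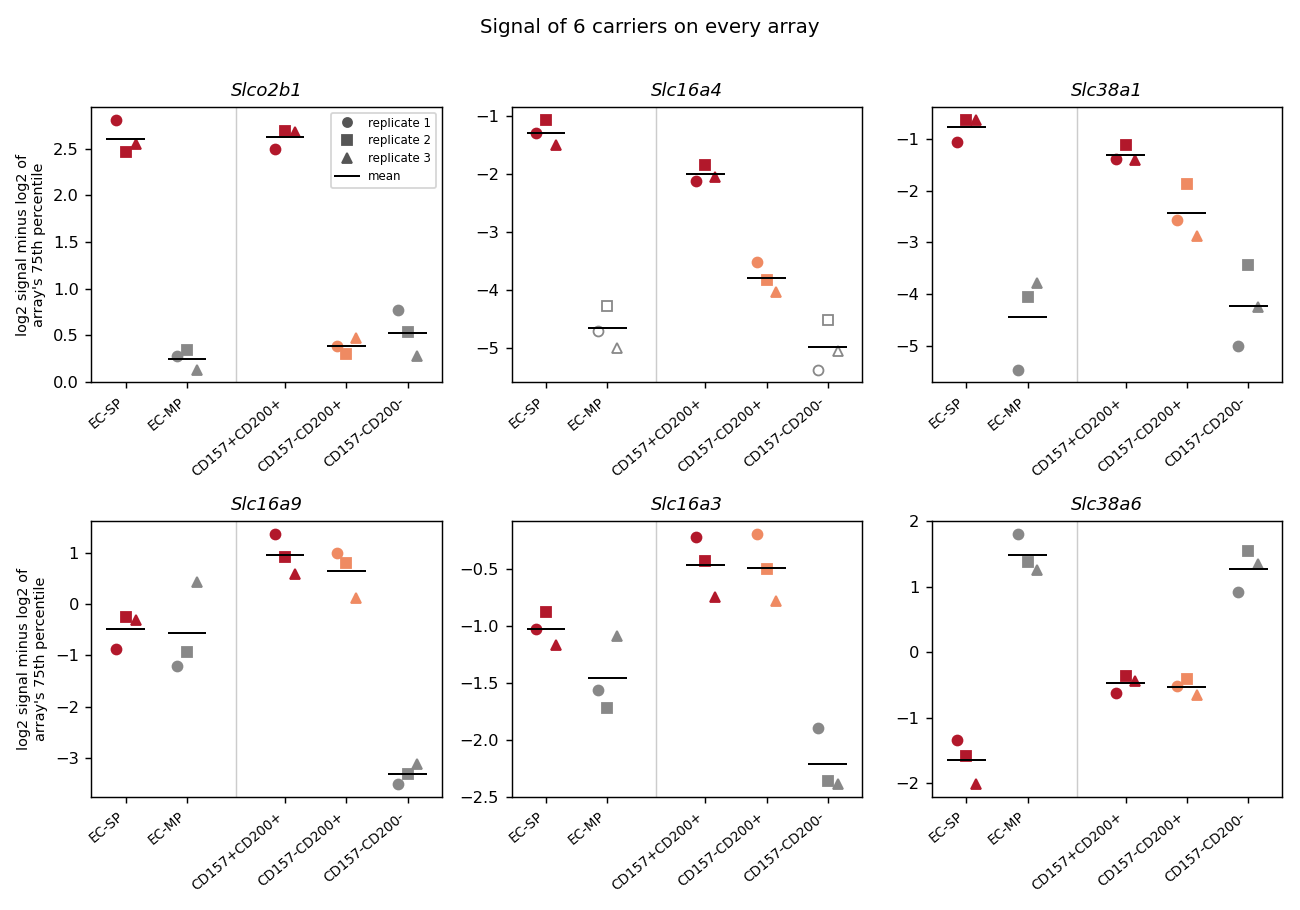
Level of 6 carriers on each of the 15 arrays, as log2 signal minus the log2 75th percentile of the array, with symbols for replicates 1 to 3, a bar at each group mean, and open symbols for groups in which no array had the gene well above background. The CD157+CD200+ arrays stand apart for Slco2b1 and Slc16a4, the CD157-CD200- arrays for Slc16a9, Slc16a3 and Slc38a6.

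Slco2a1 encodes the prostaglandin transporter. Its level was 2.69, 3.04 and 3.28 in EC-SP cells and 1.98, 2.68 and 2.06 in EC-MP cells. Among the subsets it was 3.31, 3.55 and 3.04 in CD157+CD200+, 2.94, 2.90 and 2.54 in CD157-CD200+, and 3.93, 3.39 and 3.14 in CD157-CD200- cells. The EC-SP arrays all lay above the EC-MP arrays, but the difference of 0.77 ± 0.27 missed the threshold (adjusted p = 0.093). CD157-CD200+ lay below both other subsets on every array; its difference from CD157-CD200- was -0.69 ± 0.24 (adjusted p = 0.12), and with the replicate block it was called (adjusted p = 0.022).

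Slco3a1, known in human as a carrier of prostaglandins and thyroxine, differed in its order between the 2 sets of arrays. It was at -0.15, -0.63 and -0.38 in EC-SP against 2.21, 1.91 and 2.47 in EC-MP cells, a difference of -2.58 ± 0.24 (adjusted p = 0.00025). Among the subsets it was 2.13, 2.03 and 2.01 in CD157+CD200+, 3.14, 3.00 and 3.03 in CD157-CD200+, and 1.97, 1.07 and 1.96 in CD157-CD200- cells. CD157-CD200+ lay above both other subsets on every array, by 1.39 ± 0.24 over CD157-CD200- (adjusted p = 0.0044). CD157+CD200+ minus CD157-CD200+ gave -1.0 ± 0.24 (adjusted p = 0.12), which normexp background correction or leaving out CD157-CD200- replicate 2 turned into a call (adjusted p = 0.024 and 0.018). Its second probe gave -2.08 between EC-SP and EC-MP and 1.52 between the CD157- subsets, both called.

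The remaining tested Slco genes, Slco1a1, Slco1a4, Slco1c1 and Slco4a1, were not called in the fit as described above. Slco1a1, an organic anion carrier of hepatocytes, lay between 2.04 and 3.54 on all 15 arrays. Slco1a4, known as a carrier of the blood-brain barrier in mouse, was tested between EC-SP and EC-MP, where it differed by 1.02 ± 0.33 (adjusted p = 0.066, against 0.032 with the replicate block and 0.047 with only the probes well above background on every array). Slco4a1, a thyroid hormone carrier, differed by 0.43 ± 0.42 there.

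Prostaglandin genes were followed as context. Of 12 listed genes 9 were tested, and EC-SP cells had 4 of them higher and 2 lower, CD157+CD200+ minus CD157-CD200- 2 higher and 2 lower, and medians of 0.21 and 0.04. Ptgs2 (cyclooxygenase 2) was higher by 4.06 ± 0.41 in EC-SP cells (adjusted p = 0.00036), by 3.05 ± 0.38 in CD157+CD200+ over CD157-CD200- (adjusted p = 0.0004) and by 2.53 ± 0.38 over CD157-CD200+ (adjusted p = 0.013). The last of these was lost without CD157-CD200+ replicate 1 or 2 or CD157+CD200+ replicate 2 or 3 (adjusted p 0.052 to 0.066). Hpgd, which oxidises prostaglandins once they are taken up, differed by -3.23 ± 0.21 in CD157+CD200+ minus CD157-CD200- (adjusted p = 6.1e-06). The prostaglandin E receptor Ptger4 exceeded its EC-MP level at least 2.54-fold in EC-SP cells (adjusted p = 0.00016), while Ptgs1 was lower there by a difference of -2.18 ± 0.24 (adjusted p = 0.00054).

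Among 10 listed genes of other organic anion and bile acid transport, the bile acid receptor Nr1h4 had opposite signs in the 2 sets of arrays. It was lower in EC-SP cells (-2.01 ± 0.35, adjusted p = 0.0049), and higher in CD157+CD200+ (2.08 ± 0.18, adjusted p = 4.4e-05) and in CD157-CD200+ (2.82 ± 0.18, adjusted p = 8.4e-06) than in CD157-CD200- cells. The efflux pump Abcc3 was lower in both CD200+ subsets (-1.47 ± 0.17, adjusted p = 0.00023, and -2.23 ± 0.17, adjusted p = 2.0e-05), and Slc10a6, a carrier of steroid sulfates, was higher (1.42 ± 0.17, adjusted p = 0.00035, and 0.87 ± 0.17, adjusted p = 0.0086, the second being 0.48 with an adjusted p of 0.14 over the mean of its probes). In this list EC-SP cells had 2 of 8 tested genes called lower, and 2 higher and 2 lower of 7 in CD157+CD200+ minus CD157-CD200-, with medians of -0.02 and -0.07.

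In the monocarboxylate family 12 of 14 genes were tested, with 1 called higher between EC-SP and EC-MP, and 3 higher and 1 lower between CD157+CD200+ and CD157-CD200-. The largest difference of the family in the subsets was that of Slc16a9, known in human as a carnitine and creatine carrier. Its level was 1.37, 0.92 and 0.58 in CD157+CD200+ and 1.00, 0.79 and 0.12 in CD157-CD200+ cells, against -3.51, -3.31 and -3.12 in CD157-CD200- cells. The CD200+ subsets overlapped each other, and both lay far above the CD200- arrays, by 4.27 ± 0.28 (adjusted p = 6.5e-06) and 3.95 ± 0.28 (adjusted p = 1.5e-05). The difference between the CD200+ subsets was 0.32 ± 0.28 (adjusted p = 0.96). In EC-SP cells it was -0.87, -0.26 and -0.31 against -1.21, -0.94 and 0.43 in EC-MP cells, which overlapped (0.09 ± 0.41, adjusted p = 0.92). A second probe for Slc16a9 gave 3.35 and 2.94 for the 2 subset differences, both called. With normexp correction the brighter probe gave 2.4 and 2.15, also called.

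Slc16a3, the lactate exporter MCT4, showed the same order. It was at -0.22, -0.43 and -0.75 in CD157+CD200+ and -0.19, -0.50 and -0.78 in CD157-CD200+ cells, against -1.90, -2.36 and -2.39 in CD157-CD200- cells. The differences from CD157-CD200- were 1.75 ± 0.23 (adjusted p = 0.00062) and 1.73 ± 0.23 (adjusted p = 0.00084), or 0.96 and 0.93 with normexp correction. The CD200+ subsets differed by 0.02 ± 0.23 (adjusted p = 1.0), and EC-SP minus EC-MP was 0.43 ± 0.24 (adjusted p = 0.28). The large-vessel markers moved with Slc16a9 and Slc16a3: all 6 were called higher in each CD200+ subset, and they summed to 467 to 508 in CD157+CD200+ and 461 to 507 in CD157-CD200+ against 3.77 to 4.2 in CD157-CD200- cells. Whether these 2 carriers belong to large vessels was not tested.

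Slc16a4, a member of the family with no settled substrate, was well above background on all EC-SP arrays, at -1.30, -1.06 and -1.5, and on no EC-MP array (-4.70, -4.27 and -4.99). It was at -2.11, -1.84 and -2.05 in CD157+CD200+, -3.52, -3.83 and -4.03 in CD157-CD200+ (well above background on 2 of 3 arrays) and -5.37, -4.51 and -5.05 in CD157-CD200- cells (on none). EC-SP was at least 6.07-fold above EC-MP (adjusted p = 9.0e-05; log2 difference 0.91 with normexp correction) and CD157+CD200+ at least 3.73-fold above CD157-CD200- (adjusted p = 2.7e-05; 0.61 with normexp correction), bounds set against the gene's own signal or, where that was lower, against the dimmest probe that the array still called well above background. CD157+CD200+ exceeded CD157-CD200+ by 1.79 ± 0.24 (adjusted p = 0.0089); with normexp correction the difference was 0.50 (adjusted p = 0.058), and without CD157+CD200+ replicate 2 it was 1.71 (adjusted p = 0.052). CD157-CD200+ was at least 1.08-fold above CD157-CD200- (adjusted p = 0.011, lost without CD157-CD200+ replicate 1, at 0.052, and with normexp correction, where the log2 difference was 0.11 with an adjusted p of 0.67).

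Slc16a8, a lactate carrier best known in retinal pigment epithelium, was lower in both CD200+ subsets, at -0.75, -0.11 and -0.56 in CD157+CD200+ and -0.69, -0.34 and -0.63 in CD157-CD200+ against 0.31, 0.48 and 0.06 in CD157-CD200- cells. The groups did not overlap, but both calls stood near the threshold (-0.76 ± 0.22, adjusted p = 0.044, and -0.84 ± 0.22, adjusted p = 0.033) and were lost with no filter on dim probes (adjusted p = 0.097 and 0.081) and without 7 and 4 of the 9 single arrays (adjusted p up to 0.16 and 0.12). Of 9 listed thyroid hormone genes, 6 were tested in the subsets and Klf9, a thyroid hormone target, was called, higher by 1.02 ± 0.28 in CD157+CD200+ (adjusted p = 0.033) and by 1.15 ± 0.28 in CD157-CD200+ (adjusted p = 0.024) than in CD157-CD200- cells, calls lost with no filter on dim probes (0.078 and 0.06) and without either of CD157-CD200- replicates 1 and 2, among others (0.068 to 0.11). The other 8 tested Slc16a genes were not called in the fit as described above, among them the lactate carriers Slc16a1 and Slc16a7, which differed by 0.51 ± 0.44 and 0.67 ± 0.23 between EC-SP and EC-MP (adjusted p = 0.50 and 0.078; Slc16a7 had 0.043 with the block and 0.046 with normexp correction), and the creatine carrier Slc16a12 (-0.83 ± 0.27, adjusted p = 0.067; 0.033 with the block and with the series table, 0.041 with normexp correction). A second Slc16a7 probe gave 0.11 ± 0.3 between EC-SP and EC-MP (adjusted p = 0.85 over all probes). For Slc16a5 the probes disagreed: the brighter one gave -0.18 and a dimmer one -1.91 (adjusted p = 0.022 over all probes) in CD157+CD200+ minus CD157-CD200-.

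Of 10 listed genes of lactate and pyruvate metabolism and of carrier partners, all tested, 2 were called lower in each CD200+ subset, with medians of -0.22 and -0.18 against CD157-CD200-. Pdk4, which restrains pyruvate oxidation, differed by -2.74 ± 0.22 in CD157+CD200+ minus CD157-CD200- (adjusted p = 2.4e-05) and by -2.54 ± 0.22 in CD157-CD200+ minus CD157-CD200- (adjusted p = 5.5e-05). Ldhb, a lactate dehydrogenase subunit, differed by -1.47 ± 0.22 (adjusted p = 0.0012) and -1.06 ± 0.22 (adjusted p = 0.01). In EC-SP cells Ldhb (-1.42 ± 0.24, adjusted p = 0.0046) and Pdk4 (-1.26 ± 0.34, adjusted p = 0.034) were lower, and Hif1a, the hypoxia-response factor, was higher (1.67 ± 0.36, adjusted p = 0.014); with no filter on dim probes Pdk4 and Hif1a had an adjusted p of 0.10 and 0.054, and Pdk4 missed the threshold without any array other than EC-MP replicate 3 (0.078 to 0.094).

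In the Slc22a family of organic ion carriers 10 of 26 genes were tested between EC-SP and EC-MP and 9 among the subsets. Slc22a4, the ergothioneine carrier OCTN1, was at -2.50, -2.77 and -1.69 in EC-SP cells, against -4.84, -3.46 and -4.24 in EC-MP cells, where no array had it well above background. EC-SP was at least 2.87-fold higher (adjusted p = 0.013); with normexp correction the log2 difference was 0.41 (adjusted p = 0.098), and with no filter on dim probes the adjusted p was 0.053. It was at -3.60, -3.92 and -3.52 in CD157+CD200+, -2.16, -1.51 and -1.49 in CD157-CD200+, and -2.47, -4.51 and -3.09 in CD157-CD200- cells, so CD157-CD200+ was above both other subsets on every array. The difference of CD157-CD200+ from CD157-CD200- was 1.63 ± 0.45 (adjusted p = 0.044) and was lost without any 1 of 8 arrays (adjusted p up to 0.13). Without CD157-CD200- replicate 2 it was 1.06 (adjusted p = 0.052), and CD157+CD200+ minus CD157-CD200+, at -1.96 ± 0.45 (adjusted p = 0.097), was then called (adjusted p = 0.012). With normexp correction the first was 0.5 (adjusted p = 0.042). Quantile normalization alone gave 1.51 for CD157-CD200+ minus CD157-CD200- (adjusted p = 0.088), and no filter on dim probes gave an adjusted p of 0.1, so both ended that call.

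Slc22a18, an imprinted member of the family, was higher in both CD200+ subsets, at -1.39, -1.13 and -1.85 in CD157+CD200+ and -1.49, -1.23 and -1.82 in CD157-CD200+ against -3.09, -1.98 and -3.26 in CD157-CD200- cells. The differences of 1.32 ± 0.35 (adjusted p = 0.029) and 1.26 ± 0.35 (adjusted p = 0.043) were lost with no filter on dim probes (adjusted p = 0.07 and 0.099) and without single arrays of either side, among them CD157-CD200- replicate 1 (adjusted p = 0.10 and 0.15). With normexp correction they were 0.54 (adjusted p = 0.028) and 0.49 (adjusted p = 0.054), and the series table lost the second (adjusted p = 0.059). Slc22a15 was lower in EC-SP, at -0.48, -0.36 and -0.15 against 0.46, 0.31 and 0.39 in EC-MP cells (-0.72 ± 0.21, adjusted p = 0.048), a call that did not pass without any 1 of the 6 arrays (adjusted p 0.061 to 0.15). Slc22a5, the carnitine carrier OCTN2, lay between -1.28 and -0.38 on all arrays and was not called. In the list of 10 carnitine and organic cation genes, 1 of 8 tested was called between EC-SP and EC-MP: Cpt2, the inner carnitine palmitoyltransferase, at -1.48 ± 0.26 (adjusted p = 0.0051).

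Among the heteromeric amino acid carriers, the light chains Slc7a8 and Slc7a7 were called lower in both CD200+ subsets than in CD157-CD200- cells. With the replicate block Slc7a5 was called lower and the heavy chain Slc3a2 higher as well. The heavy chain Slc3a2 was at 7.04, 7.14 and 6.23 in CD157+CD200+ and 6.73, 6.93 and 6.01 in CD157-CD200+ cells, against 6.18, 5.79 and 5.30 in CD157-CD200- cells. Replicate 3 was lowest in all 3 subsets, and within each slide both CD200+ subsets were above CD157-CD200-. The differences were 1.05 ± 0.34 (adjusted p = 0.072) and 0.80 ± 0.34 (adjusted p = 0.20), and with the replicate block both were called (adjusted p = 0.0021 and 0.0077); without CD157+CD200+ replicate 3 the first was 1.34 (adjusted p = 0.032). In EC-SP cells it was 6.53, 6.28 and 6.69 against 5.44, 5.41 and 5.65 in EC-MP cells, without overlap (0.99 ± 0.22, adjusted p = 0.015). That call was lost with quantile normalization (adjusted p = 0.071), with no filter on dim probes (0.054) and without EC-MP replicate 1 or 2 (0.055 and 0.054).

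Slc7a8, the light chain LAT2 of neutral amino acid exchange, was at -0.75, -0.54 and -0.96 in CD157+CD200+ and -0.51, -0.68 and -1.11 in CD157-CD200+ cells, against 1.78, 0.87 and 1.30 in CD157-CD200- cells. Neither CD200+ subset overlapped CD157-CD200-, and the differences were -2.07 ± 0.26 (adjusted p = 0.00048) and -2.08 ± 0.26 (adjusted p = 0.00059). EC-SP (0.09, 0.01 and 0.01) and EC-MP (0.36, -0.24 and 0.00) differed by 0.00 ± 0.23 (adjusted p = 1.0). Slc7a7, the light chain y+LAT1 that exports cationic amino acids, was lower by differences of -0.99 ± 0.22 and -1.02 ± 0.22 (adjusted p = 0.014 in each), with 2.78, 2.68 and 2.27 in CD157+CD200+ and 2.76, 2.51 and 2.35 in CD157-CD200+ against 3.89, 3.42 and 3.37 in CD157-CD200- cells. Without CD157-CD200- replicate 1 these were -0.82 and -0.86 (adjusted p = 0.054 and 0.055), and the second missed the threshold without CD157-CD200+ replicate 3 as well (0.057).

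Slc7a5, the light chain LAT1 for large neutral amino acids, was at 2.41, 2.62 and 1.64 in CD157+CD200+, 2.09, 2.39 and 1.29 in CD157-CD200+, and 3.38, 3.33 and 2.22 in CD157-CD200- cells. As for Slc3a2, replicate 3 was lowest in each subset, so the groups overlapped while every slide had CD157-CD200- on top. The differences of -0.75 ± 0.41 and -1.05 ± 0.41 did not pass the threshold (adjusted p = 0.29 and 0.15), and with the replicate block both did (adjusted p = 0.0041 and 0.0012); without CD157-CD200- replicate 3 the second was -1.43 (adjusted p = 0.047), and over the mean of its probes it was -1.11 (adjusted p = 0.014). A second probe was called in both, at -0.84 and -1.16 (adjusted p = 0.019 and 0.004 over all probes). In EC-SP cells it was 3.64, 3.38 and 3.87 against 3.03, 2.89 and 3.10 in EC-MP cells, a difference of 0.62 ± 0.22 (adjusted p = 0.095; 0.047 with the block, 0.039 with normexp correction and 0.034 over the mean of its probes), where the second probe gave 0.85 (adjusted p = 0.029). The heavy chain and LAT1 were thus both higher in EC-SP with the block. Against CD157-CD200- cells their signs were opposite in both CD200+ subsets. In CD157+CD200+ minus CD157-CD200+ both differences were positive and not called (0.25 ± 0.34 for Slc3a2 and 0.3 ± 0.41 for Slc7a5).

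**Figure D3:**
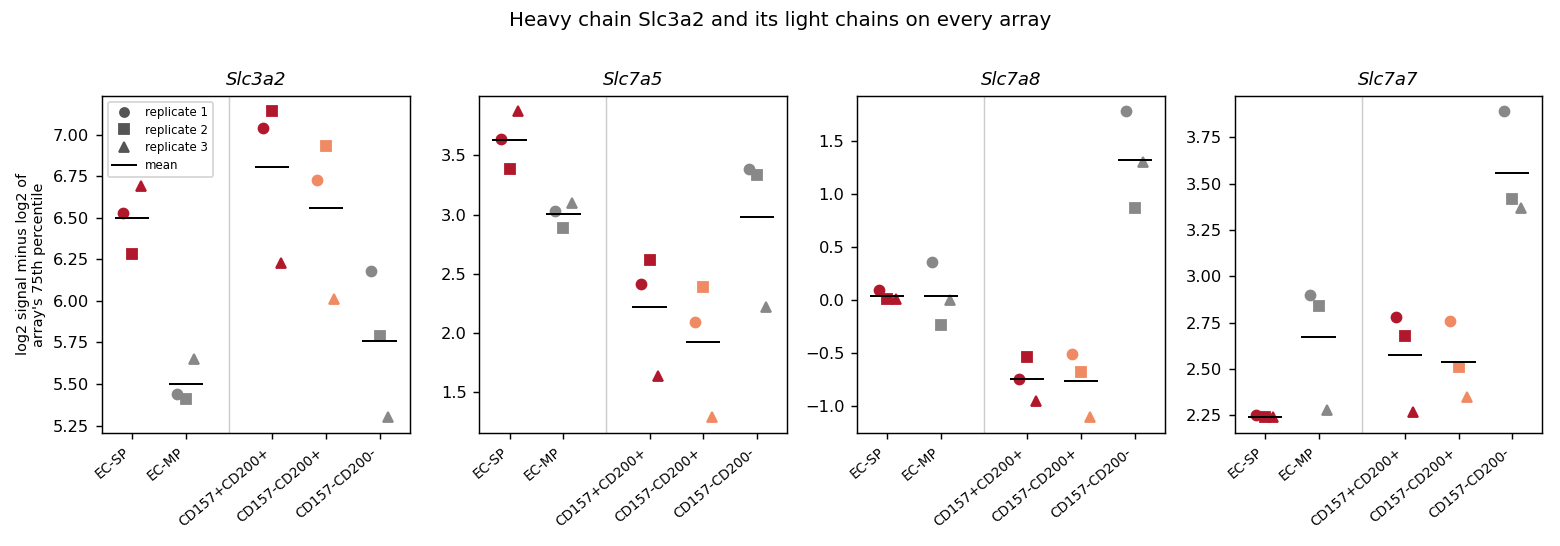
Level of the heavy chain Slc3a2 and of the light chains Slc7a5, Slc7a8 and Slc7a7 on each of the 15 arrays, as log2 signal minus the log2 75th percentile of the array, with symbols for the replicate (and so the slide) and bars at the group means. Slc3a2 was higher, and the 3 light chains lower, in both CD200+ subsets than in CD157-CD200- cells within every slide.

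Slc7a12, a light chain first described in mouse kidney, was tested in the subsets, where it was at -5.51, -4.49 and -3.72 in CD157+CD200+, -4.47, -3.84 and -3.30 in CD157-CD200+ (each well above background on 1 array of 3) and -2.79, -2.24 and -2.38 in CD157-CD200- cells. CD157+CD200+ minus CD157-CD200- was -2.10 ± 0.44 (adjusted p = 0.0096), and -0.41 (adjusted p = 0.033) with normexp correction. Hepatocyte markers moved the same way as the light chains: 11 of 12 tested were called lower in CD157+CD200+ and 12 of 12 in CD157-CD200+, and the 14 listed summed to 13.9 to 18.5 and 14.1 to 15.3 against 45.1 to 52.9 in CD157-CD200- cells. The 7 sinusoidal markers were all called lower as well. Of 7 Kupffer cell and leukocyte markers 3 were called lower in each CD200+ subset, Clec4f, Cd5l and Vsig4, at differences of -1.29 to -2.33, while the list summed to 24.8 to 29.4 in CD157+CD200+ and 24.2 to 35.0 in CD157-CD200+ against 29.2 to 37.9 in CD157-CD200- cells. The erythrocyte and platelet markers summed to 1.2 to 1.76 and 1.22 to 1.8 against 11.7 to 21.3, with Hba-a1 (-3.69 and -3.71) and Pf4 (-4.11 and -2.99) called lower. The part of these markers in the light chain differences was not tested.

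Slc7a1, the arginine and lysine carrier CAT1, works without a heavy chain and was higher in EC-SP and in both CD200+ subsets. It was at 3.04, 2.94 and 3.17 in EC-SP against 0.80, 0.10 and 0.90 in EC-MP cells (2.45 ± 0.26, adjusted p = 0.00048). Among the subsets it was 2.71, 2.67 and 2.51 in CD157+CD200+, 2.33, 2.20 and 1.84 in CD157-CD200+ and 1.26, 0.78 and 1.05 in CD157-CD200- cells, with no overlap between any of them. It was higher than in CD157-CD200- cells by 1.60 ± 0.20 in CD157+CD200+ (adjusted p = 0.0004) and by 1.09 ± 0.20 in CD157-CD200+ (adjusted p = 0.0053). CD157+CD200+ minus CD157-CD200+ was 0.51 ± 0.20 (adjusted p = 0.47).

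Of 14 listed genes that use arginine, 13 were tested, with 3 called higher and 2 lower both in EC-SP and in CD157+CD200+ minus CD157-CD200-, and medians of -0.08 and 0.18. Gatm, the first enzyme of creatine synthesis, differed by -3.93 ± 0.38 in EC-SP minus EC-MP (adjusted p = 0.00029), by -5.97 ± 0.27 in CD157+CD200+ minus CD157-CD200- (adjusted p = 6.7e-07) and by -6.37 ± 0.27 in CD157-CD200+ minus CD157-CD200- (adjusted p = 6.5e-07). Nos3, the endothelial nitric oxide synthase, was higher by 0.80 ± 0.17 in CD157+CD200+ than in CD157-CD200- cells (adjusted p = 0.011). Sat1 and Odc1, enzymes of polyamine turnover and synthesis, were higher in EC-SP by 1.77 ± 0.22 (adjusted p = 0.00089) and 1.33 ± 0.22 (adjusted p = 0.004).

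The sodium-coupled Slc38a family split. Between EC-SP and EC-MP 2 of 7 tested genes were called higher and 3 lower, and between CD157+CD200+ and CD157-CD200- 1 higher and 3 lower. The plasma membrane carrier Slc38a1 (SNAT1), which takes up glutamine and other small neutral amino acids, was at -1.06, -0.63 and -0.64 in EC-SP against -5.46, -4.06 and -3.79 in EC-MP cells, well above background on 1 EC-MP array (3.66 ± 0.41, adjusted p = 0.00059). It was at -1.39, -1.13 and -1.41 in CD157+CD200+, -2.57, -1.87 and -2.87 in CD157-CD200+ and -4.99, -3.43 and -4.25 in CD157-CD200- cells, where 1 array of 3 had it well above background; the 3 ranges did not overlap. The sizes of its differences from EC-MP and CD157-CD200- therefore rest in part on background signal: with normexp correction they were 1.29 for EC-SP minus EC-MP, 1.0 for CD157+CD200+ and 0.5 for CD157-CD200+ minus CD157-CD200-, each still called. The differences from CD157-CD200- were 2.92 ± 0.38 (adjusted p = 0.00059) and 1.79 ± 0.38 (adjusted p = 0.013; 1.5, adjusted p = 0.051, without CD157-CD200+ replicate 2), and CD157+CD200+ minus CD157-CD200+ was 1.13 ± 0.38 (adjusted p = 0.36).

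Slc38a2 (SNAT2), the amino acid-regulated carrier of the same substrates, was higher in EC-SP, at 6.46, 6.36 and 6.55 against 5.55, 5.23 and 5.37 in EC-MP cells (1.07 ± 0.21, adjusted p = 0.0091). Among the subsets it was 4.85, 4.69 and 5.27 in CD157+CD200+, 4.53, 4.47 and 5.18 in CD157-CD200+ and 4.27, 3.96 and 4.79 in CD157-CD200- cells. Replicate 3 was highest in each subset, the reverse of Slc3a2 and Slc7a5. The difference of 0.60 ± 0.28 between CD157+CD200+ and CD157-CD200- was called with the replicate block (adjusted p = 0.0065) and not without it (adjusted p = 0.22).

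Slc38a6 was lower in EC-SP, at -1.34, -1.58 and -2.01 against 1.81, 1.37 and 1.26 in EC-MP cells (-3.12 ± 0.26, adjusted p = 0.00015). It was also lower in CD157+CD200+ (-0.62, -0.36 and -0.44) and CD157-CD200+ (-0.51, -0.41 and -0.65) than in CD157-CD200- cells (0.92, 1.54 and 1.34), by differences of -1.74 ± 0.20 (adjusted p = 0.00023) and -1.79 ± 0.20 (adjusted p = 0.00025). Slc38a7, the lysosomal glutamine and asparagine exporter, was at -1.20, -1.51 and -1.78 in EC-SP and 0.58, 1.11 and -0.39 in EC-MP cells (-1.93 ± 0.37, adjusted p = 0.0082). It was at 0.44, 0.27 and -0.11 in CD157+CD200+ and 0.71, 0.60 and 0.07 in CD157-CD200+ against 1.93, 1.86 and 1.22 in CD157-CD200- cells, with differences of -1.47 ± 0.26 (adjusted p = 0.0042) and -1.21 ± 0.26 (adjusted p = 0.015). The second of these did not pass without CD157-CD200- replicate 1 or CD157-CD200+ replicate 3 (adjusted p = 0.062 and 0.055). Slc38a10 differed by -0.68 ± 0.20 (adjusted p = 0.048), -0.98 ± 0.20 (adjusted p = 0.0089) and -0.82 ± 0.20 (adjusted p = 0.026) in the same 3 comparisons. The first of these calls was lost without any 1 of the 6 arrays (adjusted p 0.097 to 0.13), and the third without any 1 CD157-CD200+ array (0.054 to 0.11) or CD157-CD200- replicate 1 or 2 (0.091 and 0.077). Slc38a9, the lysosomal arginine sensor of mTORC1, differed by -1.05 ± 0.38 in EC-SP minus EC-MP (adjusted p = 0.095), and was called with the block (adjusted p = 0.022) or without EC-SP replicate 2 (-1.38, adjusted p = 0.048). A second Slc38a9 probe gave -0.27 ± 0.3 there (adjusted p = 0.62 over all probes). The 3 genes that fell share this direction with the sinusoidal markers, and their part was not tested.

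The Slc1a family had 3 tested genes of 7. Slc1a5 (ASCT2), a sodium-coupled glutamine exchanger, was at -0.47, -0.15 and -0.40 in CD157+CD200+, -1.05, -0.68 and -1.13 in CD157-CD200+ and -2.17, -1.13 and -1.11 in CD157-CD200- cells. CD157+CD200+ overlapped neither other subset and exceeded CD157-CD200- by 1.13 ± 0.29 (adjusted p = 0.027), a call lost with no filter on dim probes (0.066), without CD157-CD200- replicate 1 (0.78, adjusted p = 0.051) and without any 1 of the CD157+CD200+ arrays (adjusted p 0.06 to 0.094), and at 0.57 with normexp correction. In EC-SP cells it was -0.34, -0.26 and -0.93 against -2.18, -1.16 and -1.32 in EC-MP cells, a difference of 1.04 ± 0.32 (adjusted p = 0.058; 0.029 with normexp correction and 0.041 with the stricter filter on dim probes), while a second, dimmer probe gave 2.36 ± 0.28 (adjusted p = 0.00092 over all probes). Slc1a4 (ASCT1), an alanine and serine exchanger, lay between 8.51 and 9.17 on all 15 arrays and was not called.

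**Figure D4:**
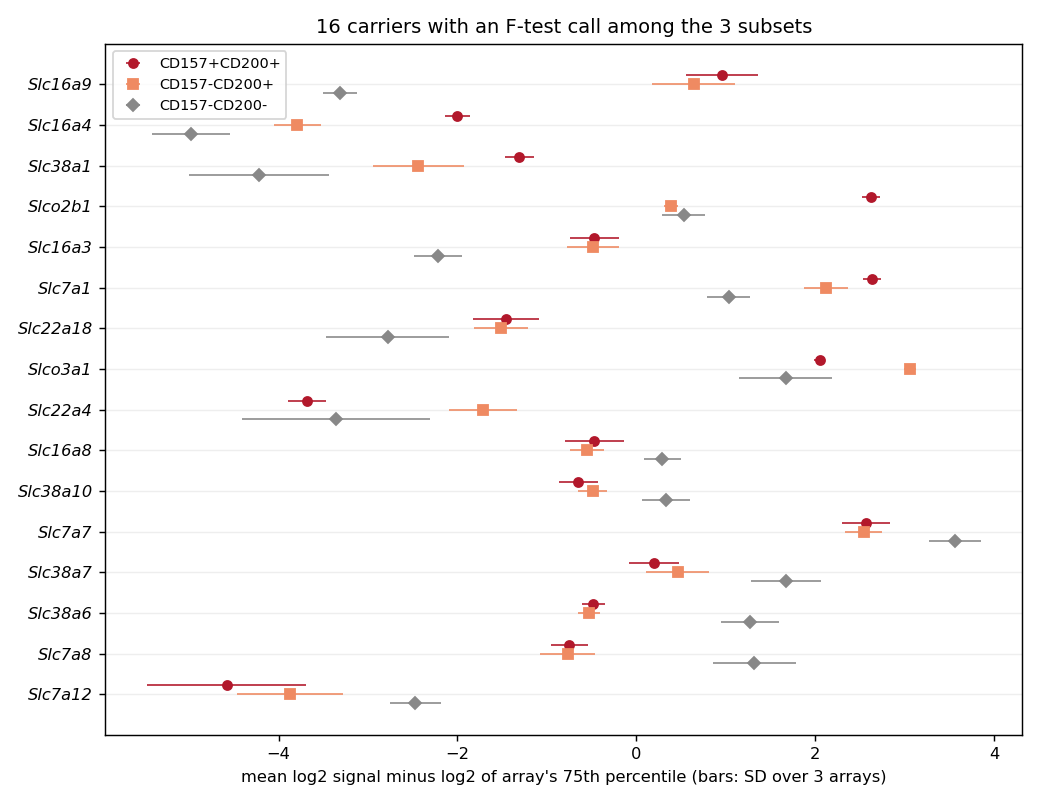
Mean level (log2 signal minus the log2 75th percentile of the array) of the 16 carriers called by the F test among the subsets, with bars of 1 SD over 3 arrays, for CD157+CD200+, CD157-CD200+ and CD157-CD200- cells. Slc16a9 and Slc16a3 have the CD200+ subsets together above CD157-CD200-, Slco2b1 has CD157+CD200+ alone above both, Slco3a1 and Slc22a4 have CD157-CD200+ on top, and the lower genes have CD157-CD200- on top.

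Genes of amino acid supply outside the 7 families moved in both directions. Among 16 other amino acid carriers, 13 were tested in the subsets with 2 called higher and 1 lower in CD157+CD200+ minus CD157-CD200- and a median of -0.30. The heavy-chain-independent neutral amino acid carrier Slc43a2 (LAT4) differed by -1.86 ± 0.33 in EC-SP minus EC-MP (adjusted p = 0.0054), -2.52 ± 0.19 in CD157+CD200+ minus CD157-CD200- (adjusted p = 1.9e-05) and -2.37 ± 0.19 in CD157-CD200+ minus CD157-CD200- (adjusted p = 3.8e-05). The taurine carrier Slc6a6 was higher in the same comparisons, by 1.95 ± 0.30 (adjusted p = 0.0026), 1.31 ± 0.29 (adjusted p = 0.012) and 2.32 ± 0.29 (adjusted p = 0.0005). Of 18 genes of the amino acid response and mTORC1, EC-SP cells had 5 of 17 tested genes higher and 1 lower (median 0.68), and 4 of 18 higher and 3 lower in CD157+CD200+ minus CD157-CD200- (median 0.02). Nupr1, an ATF4-dependent stress factor, was higher by 3.66 ± 0.44 in EC-SP (adjusted p = 0.00077), by 3.39 ± 0.23 in CD157+CD200+ over CD157-CD200- (adjusted p = 9.0e-06) and by 1.70 ± 0.23 over CD157-CD200+ (adjusted p = 0.0092). Psat1 of serine synthesis and Chac1 of glutathione breakdown were higher in EC-SP by 2.66 ± 0.29 (adjusted p = 0.0005) and 2.21 ± 0.27 (adjusted p = 0.00088), while Lamtor1, which anchors mTORC1 signalling at the lysosome, differed by -1.41 ± 0.26 there (adjusted p = 0.0067). Asns, asparagine synthetase, was higher in CD157+CD200+ than in CD157-CD200- cells by 1.36 ± 0.28 (adjusted p = 0.0079). Of 15 genes of glutamine, glutamate and glutathione, EC-SP cells had 4 of 11 tested genes higher and 1 lower (median 0.53), among them glutamine synthetase Glul (1.24 ± 0.24, adjusted p = 0.0083). In CD157+CD200+ minus CD157-CD200- 1 of 12 was called higher and 1 lower (the liver-type glutaminase Gls2, -1.96 ± 0.42, adjusted p = 0.012).

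Over the 9 subset arrays the genes of these families whose level most resembled that of Slco2b1 were Slc16a4 (Pearson r = 0.86), Slc38a1 (0.69) and Slc7a1 (0.68). For Slco2a1 they were Slc22a5 (0.88), Slc7a5 (0.85) and Slc7a7 (0.74), and for Slc7a5 they were Slco2a1 (0.85), Slc38a7 (0.84) and Slc7a7 (0.81). These describe 9 arrays that share slides and 3 group means, and carry no test.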

How the data were processed

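Cy3 intensity was read from the deposited scanner files of Agilent Feature Extraction, versions 10.10.1.1 (EC-SP and EC-MP) and 11.5.1.1 (subsets) per the file headers; the values are background-subtracted linear intensity per the file headers. RNA was amplified as cDNA before labelling, per the labels' protocols. In the deposited series table that intensity is multiplied by 1 constant per array (5.457 to 10.088), uncentred and linear; the sources used here do not give the basis of the constant, and its column medians were 256.5, 299.6 and 286.1 (EC-SP), 299.5, 331.2 and 335.4 (EC-MP), 255.8, 278.4 and 252.3 (CD157+CD200+), 265.0, 293.0 and 262.8 (CD157-CD200+), and 218.3, 296.6 and 238.5 (CD157-CD200-). It served as an alternative.

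Control spots were left out, as were 110 to 213 flagged spots of 59305 per array, and no spot was saturated. The 75th percentile of the signal was 157.0 to 297.3 intensity units; the number of arrays limits precision. Values are log2 processed signal minus the log2 75th percentile, computed from the deposited intensity. Symbols were given to 28053 probes through systematic names, the 4 annotation revisions in the files and RefSeq. Probes were tested if well above background on all 3 arrays of a group (34284 and 33839 probes, 23973 and 23703 features), and the brightest probe stood for a gene. limma 3.58.1 (lmFit, eBayes; R 4.3.3) fitted the 2 sets separately, 6 and 9 arrays, two-sided, and was tested on simulated data; Python 3.11.15 read the files. Promoters are RefSeq's (GRCm38.p6).

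Replicate numbers pair the samples: each number is 1 slide and 1 scan per set in the file headers, and same-numbered arrays correlated, after removal of group means, at r 0.27 to 0.33 (3 pairs) and 0.27 to 0.63 (9 pairs), other pairs at -0.20 to -0.08 and -0.49 to 0.03. Removing group means makes the other pairs negative on balance once same-numbered pairs are positive. Their values are therefore no separate evidence of pairing. The fit without a block is given first, and blocked values where they change a call.

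Named with values are Slco2b1, Slco2a1 and Slc7a5, up to 12 called carriers in each direction, family members completing a family, and up to 3 called genes of each pathway list in a comparison. Members, lists and this rule were chosen with earlier results of these data known. Alternatives were normexp (offset 50, on the median signal, since the files hold no mean signal) with quantile normalization, quantile alone, the series table, no filter and a stricter filter on dim probes, the mean of a gene's probes, the replicate block and leaving out each array.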

Additional observations from a re-analysis of the deposited data

How the results depend on the processing

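The counts of called carriers kept within 1.5 times their value except as follows. With the replicate block, 11 were called higher in EC-SP minus EC-MP and 1 lower in CD157+CD200+ minus CD157-CD200+. It also gave 10 called lower in CD157-CD200+ minus CD157-CD200-, and 25 by the F test. The block ended no call among the carriers, and its counts are given without a share over all features. With no filter on dim probes 3 were called lower in EC-SP minus EC-MP. In CD157+CD200+ minus CD157-CD200+ normexp correction left 1 higher and 1 lower, and the stricter filter 1 higher; that filter left 5 higher in CD157-CD200+ minus CD157-CD200-. Slide and replicate number coincide, so the slide block was not run apart. Leaving out each array in turn gave 6 to 8 called higher and 3 to 4 lower in EC-SP minus EC-MP, 6 to 8 and 5 to 7 in CD157+CD200+ minus CD157-CD200-, 1 to 2 and 0 to 2 in CD157+CD200+ minus CD157-CD200+, 5 to 7 and 2 to 7 in CD157-CD200+ minus CD157-CD200-, and 11 to 14 by the F test. In CD157+CD200+ minus CD157-CD200+ no carrier was called lower by limma without the block, with 4 lower at an unadjusted p under 0.05. Signs turned for 2 uncalled differences: Slco2a1 in CD157+CD200+ minus CD157-CD200- (-0.36 to 0.03 over the left-out arrays, positive without CD157-CD200- replicate 1) and Slc7a5 in CD157+CD200+ minus CD157-CD200+ (-0.02 to 0.59, negative without CD157-CD200+ replicate 3). The causes were not tested. The series table moved the median of all features in EC-SP minus EC-MP to -0.166, and differences there are relative to it. Dim genes such as Slc16a4, Slc22a4 and Slc22a18 lie near background, where signal limits their size.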
